A study of Mus musculus with 10 samples.

Results

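Neurotrophic factors and their receptors were examined in the hippocampus of old mice on a control diet or on calorie restriction. The set was defined by name as 8 genes: the ligands Bdnf, Ntf3, Gdnf and Cntf and the receptors Ngfr, Ntrk2, Ntrk3 and Gfra1. A gene was kept where the platform annotation assigned at least 1 probe set, that is, the short probes that together report 1 transcript, to that gene alone. This left 5 genes and 6 probe sets out of 8251 genes and 12422 probe sets on the array: 1 probe set each for Bdnf, Ntrk2, Ntrk3 and Gfra1, and 2 for Gdnf. Ntf3, Ngfr and Cntf had no such probe set and were not analysed here.

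Male C57BL/6 mice gave hippocampal RNA at 30 months of age. The control diet had been fed to 5 of them and the long-term calorie restricted diet to the other 5, and the RNA of each mouse was hybridised to 1 Affymetrix array. Strain, sex and age were shared by all groups and only the diet differed by label; the labels read here do not state the degree or the start of the restriction. Signals are MAS5 intensities on a log2 scale, so a difference of 1 is a doubling.

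Bdnf belongs to the neurotrophins, secreted growth factors that are cut from a precursor and act through Trk receptor tyrosine kinases. It binds the receptor TrkB, encoded by Ntrk2, while the receptor TrkC, encoded by Ntrk3, binds neurotrophin 3. Gdnf belongs to another family, whose members bind a membrane-anchored co-receptor of the GFR alpha group, such as that encoded by Gfra1, and signal with it through the Ret kinase or through the adhesion molecule NCAM. In the hippocampus, Bdnf is made mainly by excitatory neurons and is known for its part in synaptic plasticity, and TrkB is found on neurons and, in a form without the kinase, on astrocytes.

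The promoters of 3 members are shown because the 3 genes behaved differently on the arrays. Bdnf varied among calorie restricted mice. Gfra1 and Ntrk2 were lower in all of them than in any control mouse, and the mean signal of Ntrk2 lay among the lowest 20%. Each window runs from 250 bases before to 50 bases after an annotated transcription start in RefSeq (build GRCm38.p6), 5′ to 3′ on the strand of the gene. Capitals mark the half-site of the cAMP response element, the motif bound by CREB (TGACG or, on the other strand, CGTCA), and the GC box (GGGCGG or CCGCCC).

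Bdnf, the start at chr2:109692186-109692485 on the + strand: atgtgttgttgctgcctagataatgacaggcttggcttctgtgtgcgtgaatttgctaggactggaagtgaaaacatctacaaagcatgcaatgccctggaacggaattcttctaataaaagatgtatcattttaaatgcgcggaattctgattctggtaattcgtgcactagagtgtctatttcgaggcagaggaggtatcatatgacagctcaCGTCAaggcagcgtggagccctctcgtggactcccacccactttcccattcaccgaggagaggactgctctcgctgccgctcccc

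Ntrk2, chr13:58806319-58806618 on the + strand: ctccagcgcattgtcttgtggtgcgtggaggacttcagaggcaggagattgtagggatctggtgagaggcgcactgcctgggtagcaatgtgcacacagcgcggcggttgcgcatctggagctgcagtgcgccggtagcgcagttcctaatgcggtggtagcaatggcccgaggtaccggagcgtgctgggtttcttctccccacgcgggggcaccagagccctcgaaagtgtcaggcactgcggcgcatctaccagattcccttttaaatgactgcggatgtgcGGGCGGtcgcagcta

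Gfra1, chr19:58455349-58455648 on the - strand: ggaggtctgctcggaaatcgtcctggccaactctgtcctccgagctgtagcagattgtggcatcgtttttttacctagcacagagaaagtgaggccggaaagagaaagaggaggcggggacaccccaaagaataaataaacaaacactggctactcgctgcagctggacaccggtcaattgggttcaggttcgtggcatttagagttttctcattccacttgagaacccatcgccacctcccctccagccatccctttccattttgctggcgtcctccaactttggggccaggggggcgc

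Bdnf is transcribed from several alternative starts, of which the table held 7, and the array does not show which of them a transcript came from. The window shown is the only one of the 7 with the half-site, which begins 35 bases before the start. The half-site was found in 20.8% of 32851 windows of the same length, and the full element TGACGTCA, which contains the half-site, in 1.79% and in none of the windows of the members. The Ntrk2 window held 1 GC box, a motif found in 35.7% of all windows, and the Gfra1 window held no match to these motifs. Of the 5 members with a probe set, 4 were matched in the promoter table.

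Signals were first placed in the distribution over the array, since the size of a change is uncertain where signal is near its lower end. Bdnf lay high, at percentile 92.4 of mean log2 signal, whereas the brighter probe set of Gdnf lay at percentile 49.2 and Gfra1 at 43.6. The other 3 probe sets lay near the lowest signals, below the mean log2 signal of 6.85 at which the 40th percentile fell and below which no probe set was tested. Ntrk3 lay at percentile 37.6, just under this limit. Ntrk2 and the dimmer Gdnf probe set lay at 11.9 and 12.1, among the lowest 20%. The mean of the calorie restricted mice alone was below 6.85 for Gfra1 and Ntrk3 as well, so that Gfra1 passed the filter through its control arrays, and in Ntrk2 and the dimmer Gdnf probe set the means of both diets were below it. Detection calls were not analysed here.

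**Figure D1:**
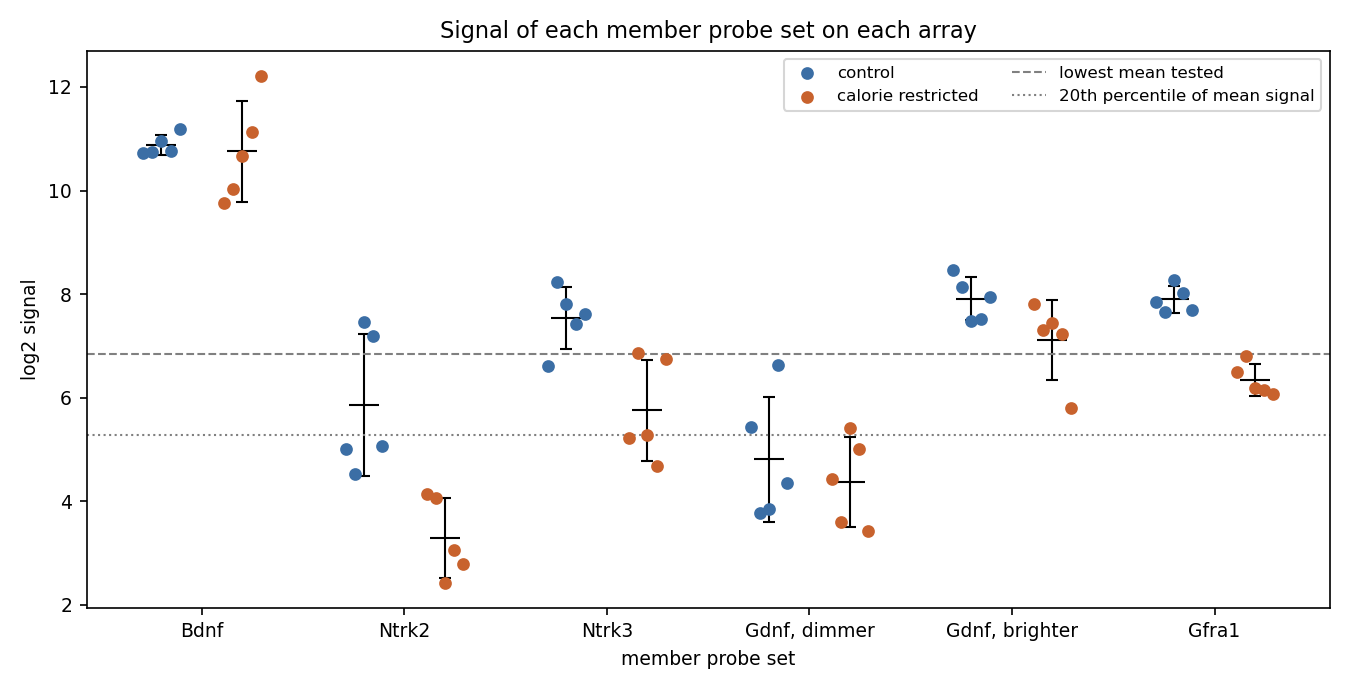
Log2 signal (vertical axis) of the 6 member probe sets (horizontal axis) on each array, with blue points for the 5 control and orange points for the 5 calorie restricted mice; bars give mean ± SD, the dashed line the lowest mean tested (6.85) and the dotted line the 20th percentile (5.28). Gfra1 and Ntrk2 do not overlap between diets, the Bdnf points of calorie restricted mice lie on both sides of the control points, and all Ntrk2 points of calorie restricted mice lie below the dotted line.

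Facts of the arrays bear on every value given here. In the calorie restricted mice the 3′ signal of Gapdh and Actb control probe sets exceeded the 5′ signal by a mean log2 difference of 2.88 ± 2.57, against 0.16 ± 0.24 in control mice (SD, n = 5 each; exact two-sided permutation p = 0.00794, adjusted p = 0.0106 over 4 measures). Such a gap widens when RNA is broken. Every calorie restricted array had a wider gap than every control array, at 0.78 to 6.11 against -0.12 to 0.45, and it was widest in calorie restricted replicates 3 and 5, at 5.20 and 6.11. Leaving out these 2 arrays therefore narrows the gap between diets but does not remove it. Marker lists were read beside the hippocampal label, which the signal filter cannot verify, since it keeps every probe set from the 40th percentile up. Of 9 measured neuronal genes 8 passed the filter, Prox1 of dentate granule cells being the exception. None of 3 markers of septal cholinergic neurons did. The median log2 change of all 7453 tested probe sets was -0.15, so changes below are given relative to it, as calorie restricted minus control, whereas the limma p-values test the change before this median is taken off. Centring each array on its own median before the fit tests the change less the diet difference in array medians, which need not equal -0.15. With that centring the split of calls turned: 2.99% of 5695 genes passed as lower and 7.80% as higher, against 6.44% and 4.09% without.

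Diets were compared to ask which trophic factor transcripts differ with calorie restriction in old hippocampus. Gfra1, the co-receptor for Gdnf, was lower in calorie restricted mice and passed at an adjusted p under 0.05, where 11.8% of all tested probe sets passed and 7.74% passed as lower. With array medians centred it also passed (limma adjusted p = 0.0126), where 11.3% passed and 3.57% passed as lower. It entered the test through its control arrays, while Ntrk2 and Ntrk3 were kept out by the same filter, so the number of members that passed is not read as a result. Bdnf did not pass and had no common direction. The tested probe set of Gdnf was lower in most calorie restricted mice without passing. Ntrk2 and Ntrk3 were also lower, at signals too low for the main test.

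Among the ligands, Bdnf, the main neurotrophin of the hippocampus, had log2 signals of 10.73, 10.74, 10.95, 10.76 and 11.18 in control replicates 1 to 5. In calorie restricted replicates 1 to 5 they were 9.76, 10.03, 10.67, 11.14 and 12.21. Replicates 1, 2 and 3 on restriction lay below every control array, replicate 4 lay within the control range and replicate 5 lay above it. On the linear scale the signal ran from 1695 to 2321 in control mice, a 1.37-fold range, and from 866 to 4740 in calorie restricted mice, a 5.48-fold range. The means were 10.87 ± 0.19 and 10.76 ± 0.97 (SD, n = 5), and the relative log2 change was 0.04 ± 0.38 (SE; 95% confidence interval -0.78 to 0.87; limma adjusted p = 0.862). This interval includes both a fall and a rise of more than 1.5-fold.

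The spread of Bdnf was larger in calorie restricted mice. Its SD among calorie restricted mice was 5.00 times that among control mice, against a median of 1.65 times over the tested probe sets, and 92.8% of them had a lower ratio. The ratio rested in part on single arrays: it was 3.20 without calorie restricted replicate 5, where the restricted range was 2.61-fold and the median over probe sets 1.29, and 9.22 without control replicate 5. The difference in spread was not tested. Calorie restricted replicate 5, with the highest Bdnf signal, also had the widest 3′ to 5′ gap, while replicate 3, with the next widest, lay just under the control range. Without replicates 3 and 5 the relative log2 change of Bdnf was -0.46 (limma adjusted p = 0.186), without replicate 5 alone it was -0.35 (adjusted p = 0.227), without replicate 4 alone it was -0.05 (adjusted p = 0.758), and with the 3′ to 5′ gap as a covariate it was -0.80 (adjusted p = 0.132). The relative change of Bdnf was thus below 0 in each of these fits, and Bdnf passed in none of them. Over all arrays its log2 change was -0.11 before the median was taken off, so only the sign relative to the median turned.

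Gdnf, the ligand of the other family, was measured by a pair of probe sets. The brighter, which was tested, had log2 signals of 8.47, 8.13, 7.49, 7.52 and 7.95 in control replicates 1 to 5 and of 7.80, 7.31, 7.44, 7.23 and 5.80 in calorie restricted replicates 1 to 5. Replicates 2 to 5 on restriction lay below every control array and replicate 1 lay among them, so the diets overlapped. The relative log2 change was -0.64 ± 0.38 (SE; 95% confidence interval -1.46 to 0.17; limma adjusted p = 0.168). Replicate 5 carried much of its size: without that array the change was -0.34 (limma adjusted p = 0.266), and with the 3′ to 5′ gap as a covariate it was -0.17 (adjusted p = 0.757).

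The dimmer Gdnf probe set did not separate the diets. Its log2 signals ran from 3.78 to 6.62 in control and from 3.44 to 5.41 in calorie restricted mice, with means of 4.81 ± 1.21 and 4.38 ± 0.86 (SD, n = 5). Control mice spanned a 7.20-fold range at this low signal, and the diets overlapped in part. Calorie restricted replicates 2 and 5 lay below every control array, and control replicates 1 and 4 lay above every restricted array. In the fit without a filter on signal, limma gave it an adjusted p of 0.711. Its relative log2 difference was -0.28, and 0.18 without control replicate 4.

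Gfra1, which presents Gdnf to Ret, had log2 signals of 7.85, 7.65, 8.27, 8.03 and 7.70 in control replicates 1 to 5. In calorie restricted replicates 1 to 5 they were 6.50, 6.81, 6.19, 6.14 and 6.08. Every calorie restricted array lay below every control array, with a gap between 6.81 and 7.65, and the spread was small in both diets. The diets failed to overlap in 10.5% of all probe sets, and in 7.27% with calorie restricted mice lower. The means were 7.90 ± 0.25 and 6.34 ± 0.31 (SD, n = 5), and Gfra1 fell by 1.40 ± 0.28 on the log2 scale relative to the median (SE; 95% confidence interval -2.00 to -0.80), a signal 2.64-fold lower (limma adjusted p = 0.0101). In bulk tissue, fewer cells that express a gene and less of its RNA per cell cannot be told apart.

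The change of Gfra1 was -1.31 without calorie restricted replicates 3 and 5 (limma adjusted p = 0.0178), a fit in which the 3 remaining restricted arrays still had wider 3′ to 5′ gaps than all control arrays. With the 3′ to 5′ gap as a covariate it was -1.21 and missed the threshold (limma adjusted p = 0.0579). The signal in calorie restricted mice lay below the lowest mean tested, so the size of the fold is uncertain. Diet and the 3′ to 5′ gap differ together on these arrays and cannot be told apart.

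**Figure D2:**
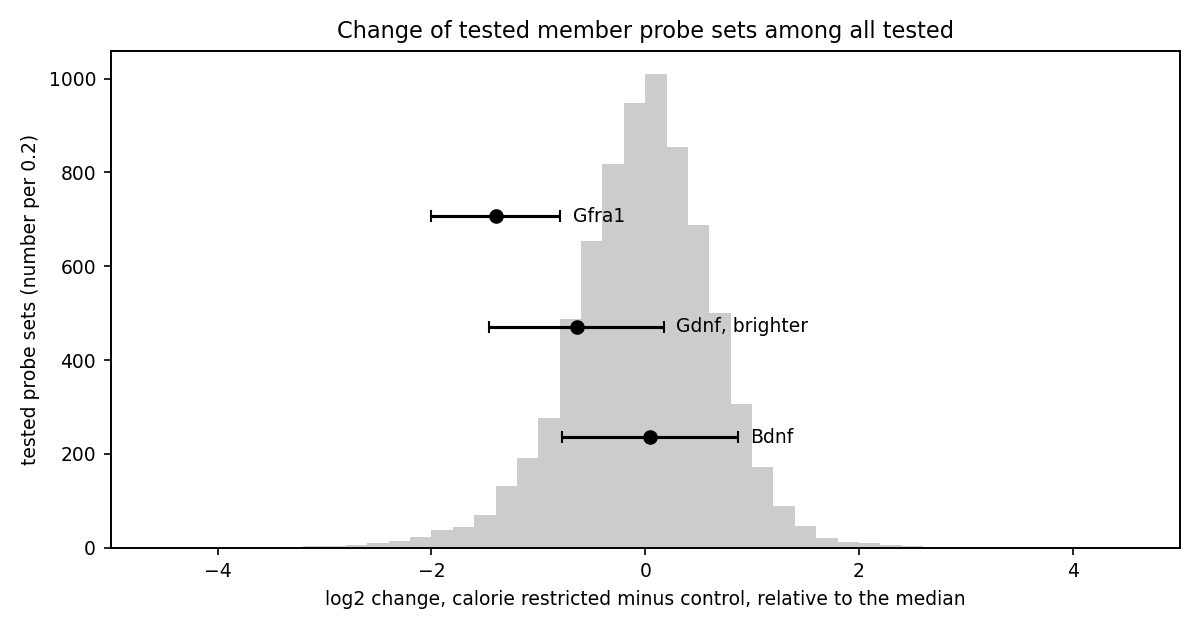
Log2 change relative to the median (horizontal axis) of the 3 tested member probe sets, as points with 95% confidence intervals, over a histogram of all 7453 tested probe sets (vertical axis, number per bin). Gfra1 at -1.40 lies in the lower tail with an interval from -2.00 to -0.80, while the intervals of Gdnf and Bdnf include 0; the vertical positions of the points carry no value.

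Ntrk2, which encodes the receptor of Bdnf, had log2 signals of 5.01, 4.52, 7.46, 7.20 and 5.07 in control replicates 1 to 5 and of 4.14, 4.07, 2.43, 3.05 and 2.79 in calorie restricted replicates 1 to 5. The diets did not overlap, although the lowest control array, at 4.52, lay close to the highest restricted array, at 4.14. Of all probe sets 7.27% likewise had no overlap with calorie restricted mice lower. Control replicates 3 and 4 stood well above the other control arrays and were also the arrays with the lowest 3′ to 5′ gap, at -0.12 and -0.07. The means were 5.85 ± 1.37 and 3.30 ± 0.77 (SD, n = 5), a relative log2 difference of -2.40. Linear signals were 23.0 to 176 in control and 5.40 to 17.7 in calorie restricted mice. All but control replicates 3 and 4, which lay above 6.85 on the log2 scale, were near the bottom of the array's range. The fold is therefore not given. Where the Ntrk2 probe set lies on the transcripts was not analysed here, so which form of TrkB it reports is not known.

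Ntrk3, the receptor of neurotrophin 3, had log2 signals of 6.61, 8.24, 7.82, 7.43 and 7.62 in control replicates 1 to 5 and of 5.23, 6.86, 5.28, 4.68 and 6.74 in calorie restricted replicates 1 to 5. Restricted replicates 1, 3 and 4 lay below every control array, and replicates 2 and 5 lay just above the lowest of them, so the overlap rested on control replicate 1. The means were 7.54 ± 0.60 and 5.76 ± 0.98 (SD, n = 5), a relative log2 difference of -1.63. Of the 2 arrays with the widest 3′ to 5′ gap, replicate 3 was among the low values and replicate 5 among the high.

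Fitted without a filter on signal, both receptors passed narrowly, Ntrk2 with a limma adjusted p of 0.0425 and Ntrk3 with 0.0489, and Gfra1 passed with 0.0145. In that fit 6.36% of 12422 probe sets passed and 4.27% passed as lower, and 3 of the 6 member probe sets passed, all lower. Among the 4969 probe sets below the filter 2.68% passed as lower. Neither passed with array medians centred (limma adjusted p = 0.0552 for Ntrk2 and 0.0781 for Ntrk3). With the 3′ to 5′ gap as a covariate Ntrk2 had -1.65 and Ntrk3 -1.93, and neither passed (limma adjusted p = 0.287 and 0.118). They had -1.99 and -1.85 when calorie restricted replicates 3 and 5 were left out, again without passing (adjusted p = 0.137 and 0.0594). Adding 16 to each signal before the log brought Ntrk2 to -1.41 (limma adjusted p = 0.0536) and Ntrk3 to -1.35, which passed (adjusted p = 0.0452). With array weights Ntrk2 had -2.11 (adjusted p = 0.0697) and Ntrk3 -1.91, which passed (adjusted p = 0.0231). Of the 9 settings other than leaving 1 array out, Ntrk2 passed in 1 and Ntrk3 in 3. Over all settings without the filter the adjusted p ran from 0.0373 to 0.287 for Ntrk2 and from 0.0231 to 0.121 for Ntrk3. Each passed with 2 of the 10 arrays left out in turn and missed the threshold with each of the other 8. The median relative log2 change was -0.21 for the probe sets below the filter and -0.11 for the lowest 20% of signal, where Ntrk2 lay. Whether low signal has a part in the lower Ntrk2 and Ntrk3 was not tested.

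**Figure D3:**
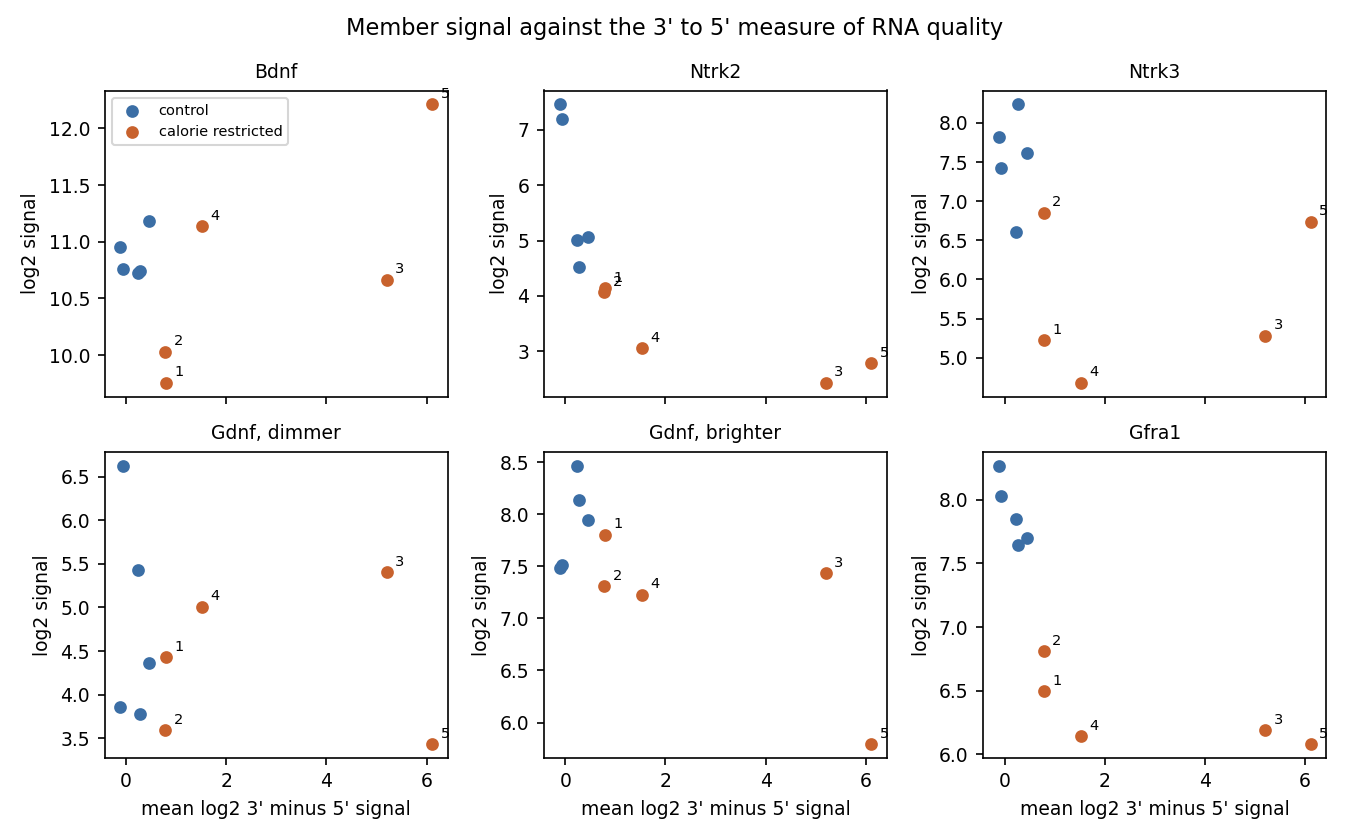
Log2 signal of each member probe set (vertical axes, which differ between panels) against the mean log2 difference of 3′ and 5′ signal of Gapdh and Actb (horizontal axes) for 5 control (blue) and 5 calorie restricted (orange, numbered by replicate) arrays. All 5 orange points lie to the right of all blue points, at 0.78 to 6.11 against -0.12 to 0.45, with calorie restricted replicates 3 and 5 farthest at 5.20 and 6.11. Gfra1 and Ntrk2 are lower in every calorie restricted array than in every control array, and Bdnf is highest in replicate 5 and lowest in replicate 1.

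For each tested member, the other genes with the most similar pattern over the 10 arrays were found by the mean absolute difference of log2 signals after each probe set's own mean was taken off. Ubqln1, at 0.16, and Lypla1, at 0.17, were nearest to Gfra1, where the median over 6734 named probe sets of other genes was 0.76. Both fell, with relative log2 changes of -1.16 and -1.17. A fall follows from choosing them by likeness to Gfra1 over both diets, so it is not read as a separate result. The nearest to the brighter Gdnf probe set were Slc22a5, a carnitine transporter, at 0.14 and Neurod1, a neuronal transcription factor, at 0.17. Nearest to Bdnf were Tfdp1 at 0.12 and Gdpd5 at 0.17. These distances describe 10 arrays that also share their RNA quality and scaling.

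The remaining genes of these pathways were followed in 5 lists. Of 105 genes 68 had a probe set, 55 were tested, 5 rose, 2 fell and 48 did not pass, with a median relative log2 change of 0.03. The share that passed, 12.7%, was close to the 10.5% of 5695 genes tested on the array, of which 4.09% rose and 6.44% fell and whose median was also 0.03. With array medians centred 6 rose and 1 fell, and 6 of the 7 were shared. With the 3′ to 5′ gap as a covariate 3 rose and 1 fell, where 2.11% and 2.27% of all tested genes did, and 3 of the 7 were shared: Npy, Egr1 and Rhoa.

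Ligands and receptors beyond the members gave no call: none of 10 tested genes passed in limma (0 calls; 2 had an unadjusted p under 0.05), and the median change was 0.0042. Ncam1, the adhesion molecule that can pair with GFR alpha receptors, came nearest, with 0.93 ± 0.24 (SE, limma adjusted p = 0.0585). Its diets did not overlap, as in 10.5% of all probe sets. It passed with array medians centred (limma adjusted p = 0.0365), so that the absence of a call depends on the scaling. With the 3′ to 5′ gap as a covariate it had 0.42 (limma adjusted p = 0.421). Pspn, a ligand of the Gdnf family, had -0.89 ± 0.39 and Gfra2, the co-receptor of neurturin, -0.63 ± 0.37 (limma adjusted p = 0.0936 and 0.170). Ret, the kinase that acts with Gfra1, lay below the filter.

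Among 10 tested genes that process or carry the precursors, 1 rose and 0 fell, with a median of -0.12. Among all tested genes 4.09% rose and 6.44% fell. Serpini1, a neuronal inhibitor of tissue plasminogen activator, rose by 0.86 ± 0.21 (SE; limma adjusted p = 0.0466), and passed with 2 of the 10 arrays left out in turn, calorie restricted replicate 4 and control replicate 5. Quantile normalization gave 0.40, which missed the threshold (limma adjusted p = 0.233), as did the fits with the 3′ to 5′ gap as a covariate and without calorie restricted replicates 3 and 5 (adjusted p = 0.188 and 0.0992). Cpe, the carboxypeptidase that helps to sort Bdnf into vesicles, had 0.78 ± 0.24, the convertase Pcsk6 had -1.22 ± 0.57 and Hap1, a transport adaptor, had -0.46 ± 0.29, and none of these passed (limma adjusted p = 0.102, 0.124 and 0.164). The convertase Furin had 0.12.

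Of 19 tested genes for signalling downstream of Trk, Ret and the gp130 receptor, 0 rose and 1 fell, with a median of -0.02. The shares over all tested genes were 4.09% and 6.44%. Plcg1, the phospholipase that Trk receptors phosphorylate, fell by 0.76 ± 0.26 (SE; limma adjusted p = 0.0443), and missed the threshold under quantile normalization, with array medians centred, with the 3′ to 5′ gap as a covariate and without calorie restricted replicates 3 and 5 (limma adjusted p = 0.163, 0.0981, 0.177 and 0.0988). It passed with 2 of the 10 arrays left out in turn, control replicate 3 and calorie restricted replicate 4. The exchange factor Sos1 had 1.36 ± 0.46, the phosphoinositide kinase subunit Pik3r1 -0.82 ± 0.40 and the adaptor Grb2 -0.72 ± 0.36, without passing (limma adjusted p = 0.102, 0.123 and 0.123). Creb1 and Braf were among 8 genes below the filter.

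In p75 receptor signalling 1 of 5 tested genes rose and 0 fell, with a median of 0.32, against 4.09% and 6.44% of all tested genes. The gene that rose was Rhoa, a small GTPase of the cytoskeleton, by 1.27 ± 0.23 (SE; limma adjusted p = 0.0154). Its probe sets did not agree, however: another passed in the opposite direction at -1.11 (limma adjusted p = 0.0448) and the third had -0.06. The direction of Rhoa is not settled here. Irak1, Maged1 and Mapk8 had 0.67, 0.32 and -0.17 and did not pass.

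Transcripts known to be induced by trophic factors included 3 of 11 tested genes that rose and 1 that fell, with a median of 0.52. Over all tested genes 4.09% rose and 6.44% fell. With array medians centred the list again had 3 that rose and 1 that fell, where 7.80% and 2.99% of all tested genes did. Npy, an inhibitory neuropeptide, rose by 1.58 ± 0.21 (SE), Egr1 by 1.18 ± 0.22 and Fos by 1.17 ± 0.30, the latter pair encoding activity-induced transcription factors (limma adjusted p = 0.00600, 0.0183 and 0.0451). Egr1 and Fos each had another probe set below the filter with the opposite direction, at -1.28 and -1.19. With 1 array left out Egr1 missed the threshold without control replicate 2 (limma adjusted p = 0.0506), whereas Fos passed in 3 of 10 fits, those without control replicate 5 or calorie restricted replicate 2 or 4. Fos also missed it with the 3′ to 5′ gap as a covariate and without calorie restricted replicates 3 and 5 (limma adjusted p = 0.197 and 0.0988), whereas Npy and Egr1 passed in both. Spry4, a feedback inhibitor of receptor tyrosine kinases, fell by 0.73 ± 0.19 (limma adjusted p = 0.0175) and had -0.63 under quantile normalization, where it missed the threshold (adjusted p = 0.0581), as it did with the covariate (adjusted p = 0.0603). Junb had -0.85 ± 0.55, Nr4a1 0.57 ± 0.25 and Fosb -0.12 ± 0.16, and none passed (limma adjusted p = 0.227, 0.269 and 0.251). The summed linear signal of the 12 measured genes was 7564 to 10284 in control and 10555 to 13855 in calorie restricted mice, without overlap. Npy and Egr1 carried this shift: the mean sum differed by 4100, of which Npy gave 2503 and Egr1 1216, and the sum of the other 10 genes overlapped, at 5283 to 7434 and 5616 to 7034.

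**Figure D4:**
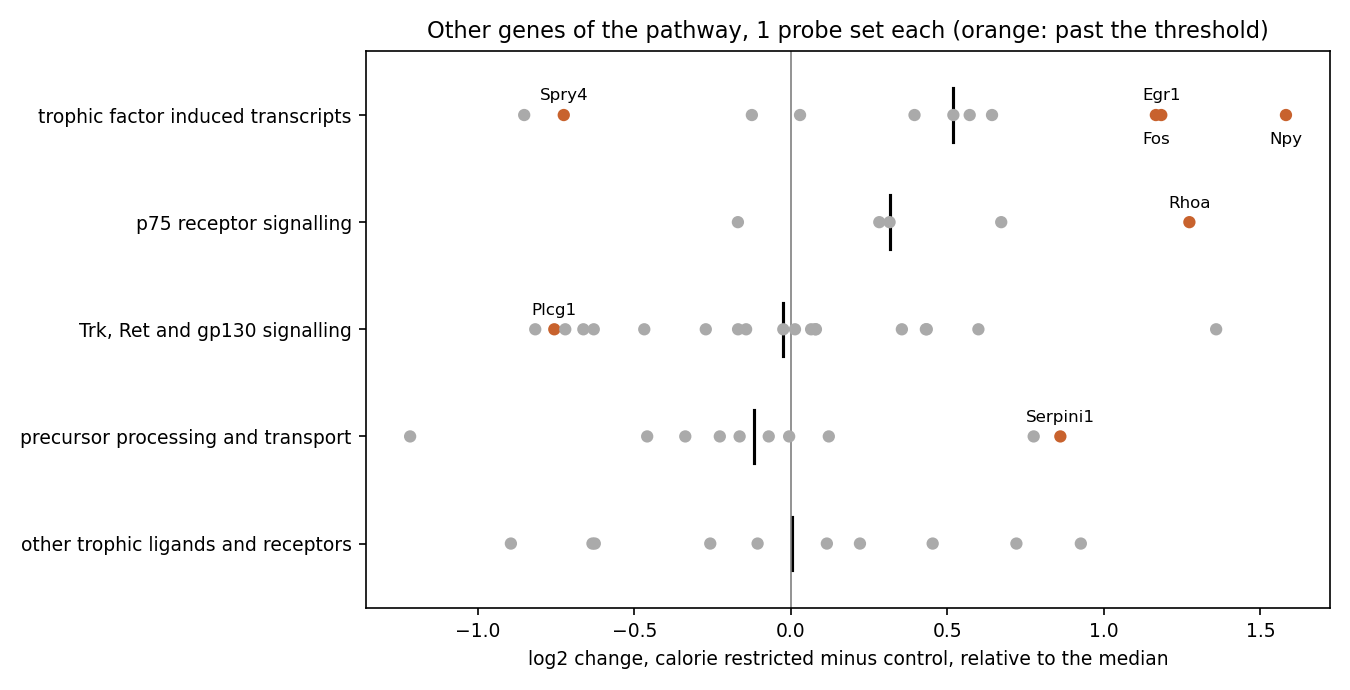
Log2 change relative to the median (horizontal axis) of 55 tested genes in 5 pathway lists (vertical axis), 1 probe set per gene, with genes past the threshold in orange and named, the others in grey, and a black bar at the median of each list. The medians of the list of other ligands and receptors and of the signalling list lie at 0.0042 and -0.02, and 7 genes are orange, of which Spry4 and Plcg1 lie to the left of 0.

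Markers of the cells that express these genes were read on the same arrays. Of 8 tested neuronal markers 1 rose and 4 fell, with a median of -1.06, against 4.09% and 6.44% of all tested genes, while their summed linear signal, dominated by the brightest genes, was 27999 to 38390 in control and 30018 to 44094 in calorie restricted mice. With array medians centred 1 rose (Thy1) and 1 fell (Syt1). Of 8 astrocyte markers 0 rose and 4 fell, with a median of -0.68 and sums of 8684 to 13013 and 7148 to 21250 and 3 that fell with array medians centred. Oligodendrocyte and microglial markers each included 2 that fell and 0 that rose, of 6 tested in each list. With array medians centred 1 oligodendrocyte marker rose (Mobp) and 0 fell, and 1 microglial marker rose (Aif1) and 1 fell (Cx3cr1). Mobp stands here by its brightest probe set. Its other 3 tested probe sets all passed as lower in the fit without centring, so the direction of Mobp is not settled here. For choroid plexus and ependyma 2 of 4 fell, with sums of 3242 to 11575 and 912 to 15353 and 1 that fell with array medians centred. With the 3′ to 5′ gap as a covariate the calls left over all these lists were Neurod6 of neurons, Atp1b2 of astrocytes and Cldn11 of oligodendrocytes, all lower. No marker of endothelium (3 tested) or of pericytes and meninges (6 tested) passed in any of these 3 fits, and none had an unadjusted p under 0.05 in the limma fit of all arrays without centring. The sums of each of these lists overlapped between diets, and their part in the lower signals of Gfra1, Ntrk2 and Ntrk3 was not tested.

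**Figure D5:**
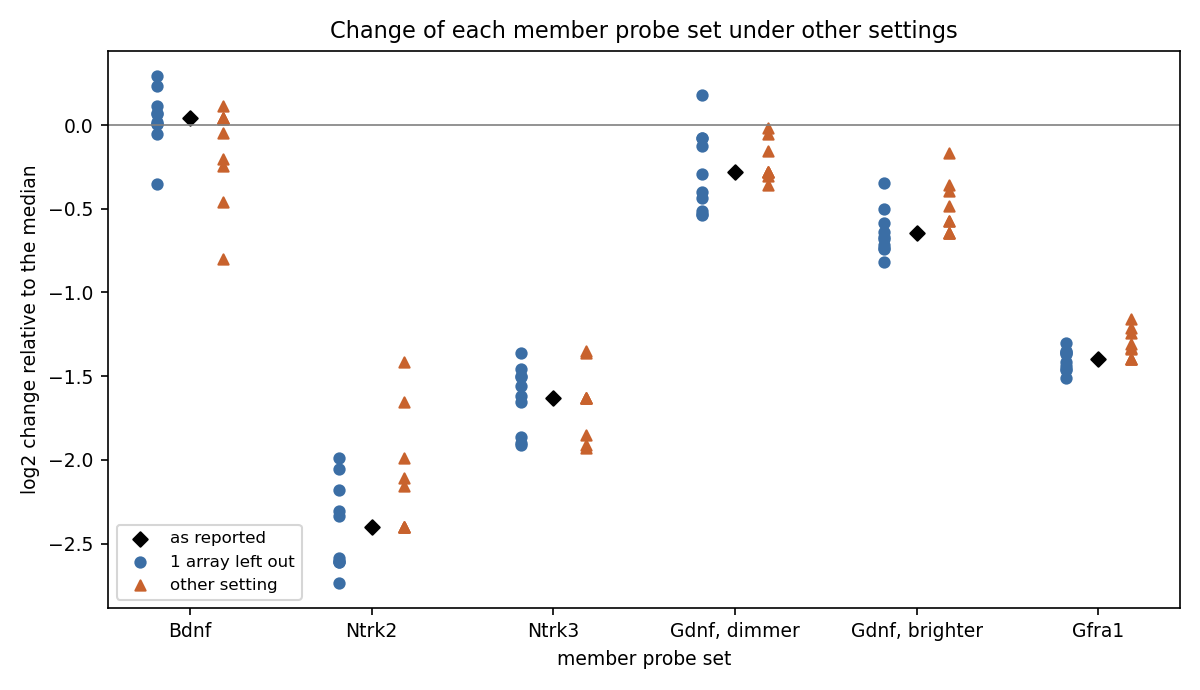
Log2 change relative to the median (vertical axis) of each member probe set (horizontal axis) as reported (black diamonds), with each of the 10 arrays left out in turn (blue circles) and under other settings of the analysis (orange triangles). Gfra1 stays between -1.51 and -1.16, Ntrk2 and Ntrk3 stay below 0, and Bdnf lies on both sides of 0, from -0.80 to 0.29.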

How the data were processed

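Hippocampal RNA of 10 mice, 5 per diet and 1 per array, was measured on Affymetrix oligonucleotide arrays. The deposited intensity values are linear probe set signals computed by the authors with MAS5, per the submitters' processing notes; no version is given there. The mean without the lowest and highest 2% was 500 on each array, so arrays had been scaled before deposit. Values under 1 (41 of 124880) were set to 1 and taken to log2. The 66 control probe sets were left out, and so were those below the 40th percentile of mean log2 signal, which left 7453. The comparison of diets used limma 3.58.1 in R 4.3.3 (lmFit, eBayes with a variance trend) with Benjamini-Hochberg adjustment over all 7453 and a threshold of 0.05; the fit was tested on simulated data. Array measures were compared by exact permutation over 252 splits. Replicates are separate mice, and their number limits the precision. No batch is named in the labels.

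Gene names came from the platform annotation, in which 10833 probe sets had 1 symbol (10817 matched to RefSeq), 396 had several and 1193 had none. A gene in a list stands by its tested probe set with the highest mean. Genes were named by a rule: all members, list genes that passed, up to 3 more per list with the smallest p, and the 2 nearest in pattern; Prox1, Ret, Creb1, Braf and Furin were named besides, after their values were seen. Members, lists and alternatives were chosen with earlier results of these data known; the spread of Bdnf with arrays left out and the induced sum without Npy and Egr1 were added after the values were seen. The alternatives kept the tested probe sets as they were, except for those that changed the filter or dropped it.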

Additional observations from a re-analysis of the deposited data

Results flagged for a closer look

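Dixon's test flagged 2 of 20 groups of 5 arrays, over the 6 member probe sets and 4 array measures in each diet, and chance alone flags about 1 in 20. In the brighter Gdnf probe set the lowest calorie restricted array, replicate 5, stood apart at a log2 signal of 5.80, with the others at 7.23 to 7.80. In the log2 difference of Gapdh 3′ and 5′ signal the highest control array, replicate 5, stood apart at 0.62, with the others at -0.30 to -0.09.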

How the results depend on the processing

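Gfra1 kept its direction in every alternative that measured it. With 1 array left out its change ran from -1.51 to -1.30 and passed each time. With RNA quality, read only as the 3′ to 5′ gap, as a covariate it had -1.21 and did not pass. Bdnf had -0.20 under quantile normalization, -0.049 with the filter at the 60th percentile, -0.24 with array weights, -0.80 with RNA quality as a covariate and -0.46 without calorie restricted replicates 3 and 5; with 1 array left out it ran from -0.35 to 0.29. The brighter Gdnf probe set stayed below 0 and did not pass in any alternative, at -0.82 to -0.34 with 1 array left out. The count of member probe sets that passed was 1, with 3 when no filter was used, 0 with the filter at the 60th percentile, which drops Gfra1, and 0 with RNA quality as a covariate; with 1 array left out it was 1 throughout. The count near the lowest signals was 3, and 5 with the limit at the 60th percentile. For pathway genes the count was 7, with 4 under quantile normalization, without a filter, with RNA quality as a covariate (3 of them among the 7) or without calorie restricted replicates 3 and 5, and 3 to 8 with 1 array left out. It was 3 without control replicate 2 and 4 without control replicate 1 or 4 or calorie restricted replicate 1, 3 or 5. The mean 3′ to 5′ difference between diets was 2.73 with all arrays, 0.88 without calorie restricted replicates 3 and 5, and 1.92 to 3.25 with 1 array left out.

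Replicate numbers did not pair the samples: deviations from the diet means of same-numbered arrays had correlations of -0.08 to 0.17, of which 1 of 5 was over 0.1, and 1 of 10 arrays correlated best with its own number. With the replicate number as a block, Gfra1 had -1.40 and passed (limma adjusted p = 0.0386), 1 member probe set passed and 5 pathway genes did. Low signal limits Ntrk2, Ntrk3 and the dimmer Gdnf probe set most, since no measure of background was analysed.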
